A study of Mus musculus with 8 samples.

Results

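The collagens, laminins, matrix metalloproteinases, ADAMTS proteases, lysyl oxidases and tissue inhibitors of metalloproteinases were examined in mouse liver RNA, together with decorin, lumican and 5 genes of stellate cells and myofibroblasts. Members were chosen by gene symbol alone, as every collagen chain (Col), laminin chain (Lama, Lamb, Lamc), Mmp, Timp, Lox, Loxl and numbered Adamts symbol of the count table, plus Acta2, Des, Pdgfrb, Lrat, Tgfb1, Dcn and Lum. This gave 89 of the 19267 genes in the table, and the 60 with a mean of at least 10 counts per library were tested. RNA came from livers of male C57BL/6 mice aged 9 weeks, which had been pair-fed a Lieber-DeCarli liquid diet for 21 days from an age of 6 weeks. The diet held either 5% (w/v) alcohol (EtOH) or maltose dextrin of equal calories (Control). The genotype called Elf4-/- here is Elf4fl/fl-Villin-Cre, in which the villin promoter drives Cre and deletes the transcription factor gene Elf4 in the epithelium of the gut, and the liver was not the tissue aimed at. The mice called WT were Cre mice, so both genotypes carried the transgene. Each genotype was studied on each diet, which gave 4 groups of 2 libraries. No label states that both libraries of a group came from different animals, so p-values measure the spread between these libraries, which may be technical. The study asked whether loss of Elf4 in the gut alters the response of the liver to alcohol, and scarring was 1 of its readouts.

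Scarring of the liver is laid down mainly by hepatic stellate cells. In the healthy liver these cells lie between hepatocytes and endothelium and store vitamin A as esters made by lecithin retinol acyltransferase (Lrat). After injury they can become myofibroblasts, which express smooth muscle actin (Acta2) and secrete fibrillar collagens under the influence of TGF-beta. Matrix metalloproteinases and ADAMTS enzymes cut matrix proteins or their precursors, the TIMP proteins inhibit these enzymes, and lysyl oxidases cross-link collagen and elastin.

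Promoters are shown for 4 members. Timp3 and Col5a3 passed the test for alcohol in both genotypes. Lrat and Adamts1 were among the 16 tested members that stood higher in every EtOH library than in every Control library. The bases just upstream of the start site are from RefSeq (GRCm38.p6, the assembly of mm10) and run 5′ to 3′ on the strand of the gene. They cover chr10:86300162-86300371 for Timp3 (plus strand), chr9:20815068-20815317 for Col5a3, chr3:82903975-82904224 for Lrat and chr16:85803114-85803363 for Adamts1 (minus strand for the last 3). Capitals mark matches to any of 4 common promoter motifs, searched on either strand. The first is the TATA box, spelled TATAAA here, which helps to place the start of transcription. The second is the CCAAT box, searched by its 5 letters. The GC box, to which Sp1 and its relatives bind, was searched as GGGCGG in these windows. The last is the site of AP-1, the Fos and Jun dimer, for which the letters TGACTCA were used.
Timp3: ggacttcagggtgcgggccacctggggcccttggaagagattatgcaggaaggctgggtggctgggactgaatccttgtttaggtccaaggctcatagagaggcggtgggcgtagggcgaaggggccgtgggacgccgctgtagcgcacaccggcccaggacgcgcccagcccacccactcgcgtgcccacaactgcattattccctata
Col5a3: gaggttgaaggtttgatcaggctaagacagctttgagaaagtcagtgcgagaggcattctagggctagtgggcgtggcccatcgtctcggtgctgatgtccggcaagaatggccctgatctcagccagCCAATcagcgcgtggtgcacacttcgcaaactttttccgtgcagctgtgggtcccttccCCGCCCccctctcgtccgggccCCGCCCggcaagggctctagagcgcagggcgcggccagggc
Lrat: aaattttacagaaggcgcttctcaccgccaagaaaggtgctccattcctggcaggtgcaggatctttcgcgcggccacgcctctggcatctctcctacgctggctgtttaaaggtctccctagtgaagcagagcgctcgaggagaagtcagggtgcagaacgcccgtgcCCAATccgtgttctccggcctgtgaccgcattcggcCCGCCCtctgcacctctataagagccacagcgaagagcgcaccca
Adamts1: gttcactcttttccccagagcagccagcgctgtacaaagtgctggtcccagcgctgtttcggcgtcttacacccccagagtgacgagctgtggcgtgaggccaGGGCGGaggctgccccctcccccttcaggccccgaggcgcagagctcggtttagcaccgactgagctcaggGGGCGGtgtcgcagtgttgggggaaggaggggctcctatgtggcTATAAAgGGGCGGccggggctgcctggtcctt
The window of Adamts1 held a TATA box and 3 GC boxes, that of Col5a3 a CCAAT box and 2 GC boxes, and that of Lrat a CCAAT box and a GC box, whereas these letters were not in the 210 bases shown for Timp3. RefSeq gave promoters for 58 of the 89 members, as 64 windows of 250 bases before to 50 after the start. A GC box was in 64.1% of these windows and in 35.7% of all 32851 promoters of the table. The TATA box was in 12.5% against 13.6%, the CCAAT box in 29.7% against 37.4%, and the AP-1 site in 6.25% against 5.2%. A match of letters is a description and not a site of binding, and where no match was found this says only that these letters are not in the window.

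Library totals ran from 6171051 to 9157362 counts, of which 0.195% to 0.246% belonged to members. Elf4 itself had between 6 and 36 counts per library, and its liver level did not differ by genotype past the test under EtOH (log2 fold change -0.06, adjusted p = 0.985) or Control (-0.54, adjusted p = 0.912, edgeR), which bears on liver and not on the gut. Replicates of a group were not equally close. Of the 60 tested members, 42 stood higher in replicate 1 of WT Control, 47 in that of Elf4-/- EtOH, 40 in that of Elf4-/- Control and 14 in that of WT EtOH. The median log2 difference of replicate 1 from replicate 2 over members was 0.61, 0.49, 0.34 and -0.23 in that order, while over all genes it was -0.01 or -0.02 in each group. Genes of the mitochondrial genome took 33.7% and 23.4% of counts in WT Control, 10.8% to 12.5% in WT EtOH, and 18.3% to 22.1% in the 4 Elf4-/- libraries. The part of these differences in the results below was not tested, and values without WT Control replicate 2 and Elf4-/- EtOH replicate 1 are given for some members.

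Levels are given as CPM, which is each count scaled to its library total, with TMM factors. Per kilobase of exon and over the 4 Control libraries, the mean level was highest for Mmp11 (stromelysin 3) at 123 CPM per kb, Col18a1 at 107, Col5a3 at 45.8 and Col27a1 at 29.0, with Dcn at 6.58. Over the 4 EtOH libraries it was 146 CPM per kb for Mmp11, 56.2 for Col18a1, 31.7 for Dcn, 18.0 for Mmp19, 16.0 for Col27a1 and 8.39 for Col5a3. Mmp11, Col18a1, Col27a1 and Col5a3 together took 48.5% to 80.4% of all member counts of a library. Mmp11 shares exon bases with Chchd10 on the opposite strand, and its counts were 0.738 to 0.890 times those of Chchd10 in each library. Reads of both cannot be told apart, so the rank of Mmp11 and this share may include reads of Chchd10. The other 29 members had a mean of 1 to 9.88 counts and were not tested. Among them were Timp1, the inhibitor commonly measured in fibrosis, which had counts of 2 and 5 with EtOH against 1 and 2 with Control in WT mice, and 2 and 1 with EtOH against 1 and 1 with Control in Elf4-/- mice, and Lox, the founding lysyl oxidase. Lox had counts of 2 and 3 with EtOH against 2 and 0 with Control in WT mice, and 6 and 6 with EtOH against 4 and 2 with Control in Elf4-/- mice. At this depth neither could be compared. Mmp9, Mmp12, Mmp13 and Mmp8 were also among the members that were not tested.

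In WT mice members rose with the alcohol diet more often than all genes did, and fell about as often. Of the 60 members, 12 rose (20% of members, where 10.8% of all 13993 genes rose) and 6 fell (10%, where 10.8% of all genes fell), by the quasi-likelihood test of edgeR at a Benjamini-Hochberg adjusted p of 0.05. The members that rose were Dcn, Lum, Timp2, Timp3, Lrat, Col13a1, Col14a1, Col5a2, Lamb1, Lamc1, Loxl1 and Adamts1, and those that fell were Col5a3, Col15a1, Col18a1, Lama3, Mmp14 and Adamts7. The median log2 fold change over members was 0.89, against 0.01 over all genes, and 49 of 60 were positive. In bulk liver, fewer cells of a type and less RNA per cell cannot be told apart. Scaling by library totals alone moved the median of all genes from 0.01 to 0.44. It gave 27 rises (45%, where 24.5% of all genes rose) and 4 falls (6.67%, where 4.53% of all genes fell), so the split between both directions depended on the scaling. Without 1 library the calls numbered 5 (WT EtOH replicate 2), 9 (WT EtOH replicate 1), 11 (WT Control replicate 2), 15 (either Elf4-/- Control library), 17 (WT Control replicate 1), 27 (Elf4-/- EtOH replicate 2) or 28 (Elf4-/- EtOH replicate 1), and Dcn, Lrat, Timp3 and Col14a1 passed in every one of these 8 fits. The share of all genes called in these fits ran from 4.28% without WT EtOH replicate 2 to 27.3% without Elf4-/- EtOH replicate 2.

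In Elf4-/- mice 2 members passed for alcohol. Timp3 rose, which is 1.67% of members where 1.71% of all genes rose, and Col5a3 fell, where 1.18% of all genes fell. The median log2 fold change of members was 0.39, against 0.01 over all genes, and 18 of 60 had an unadjusted p under 0.05 (30.0%, against 21.2% of all genes). DESeq2 called 9 members, adding Dcn, Lrat, Adamts1, Col4a1, Col20a1 and Mmp19 as higher and Lama3 as lower, so 7 rose (11.7%, where 3.66% of all genes rose by DESeq2) and 2 fell (3.33%, where 2.90% fell). The count by edgeR turned on single libraries. It was 2 without either WT Control library, with Dcn in place of Timp3, 0 without either Elf4-/- Control library or with the 4 Elf4-/- libraries alone, 1 without either WT EtOH library or Elf4-/- EtOH replicate 1 (Col5a3), and 16 without Elf4-/- EtOH replicate 2, including Col4a1, Col1a1, Dcn, Lrat, Mmp2 and Loxl2 as higher and Col27a1 and Adamts7 as lower, where 11.4% of all genes passed.

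**Figure D1:**
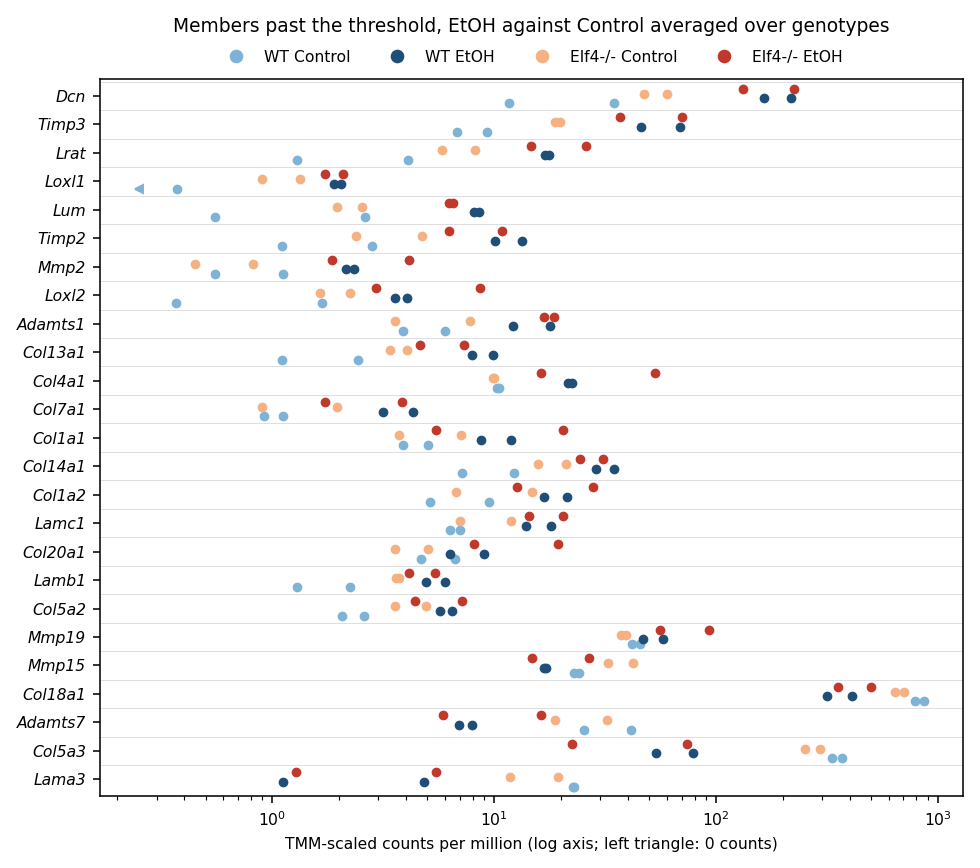
TMM-scaled CPM on a log axis for the 25 members past the threshold for EtOH against Control averaged over genotypes, each point 1 library and colours the 4 groups. Dcn, Timp3, Lrat, Lum and Timp2 were higher in all 4 EtOH libraries than in all 4 Control libraries, and Col18a1, Adamts7, Col5a3 and Lama3 were lower in all 4.

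Averaged over both genotypes, 20 members rose (33.3%, where 14.1% of all genes rose) and 5 fell (8.33%, where 13.8% of all genes fell). This contrast draws on the same libraries as both single diet contrasts. All 4 EtOH libraries lay above all 4 Control libraries for 16 of 60 members (26.7%, against 13.9% of all genes) and below them for 4 (6.67%, against 14.0%). The 20 that rose were Dcn, Timp3, Lrat, Loxl1, Lum, Timp2, Mmp2, Loxl2, Adamts1, Col13a1, Col4a1, Col7a1, Col1a1, Col14a1, Col1a2, Lamc1, Col20a1, Lamb1, Col5a2 and Mmp19, and the 5 that fell were Lama3, Col5a3, Adamts7, Col18a1 and Mmp15. The 25 kept their direction in the 8 fits that left out 1 library, but such a fit leaves 1 library in a group. The calls of Col1a1, Col1a2, Col20a1, Col5a2, Col7a1, Lamb1, Loxl1, Loxl2, Mmp15, Mmp19 and Mmp2 turned on single libraries. Col1a1 ran from 0.60 to 1.53 and Loxl1 from 1.54 to 3.83. The excess of rising members over all genes was smaller without some libraries, among them WT Control replicate 2 and Elf4-/- EtOH replicate 1. Leaving out WT Control replicate 2 and Elf4-/- EtOH replicate 1 together leaves 1 library in each of these groups. The log2 fold change was then 1.43 for Adamts1, 1.11 for Col13a1, 0.80 for Col20a1, 0.60 for Col1a2 and 0.51 for Col1a1. With all libraries it was 1.61, 1.51, 1.04, 1.13 and 1.22 in that order.

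Both small leucine-rich proteoglycans rose with alcohol in WT. Dcn (decorin, which coats collagen fibrils and binds TGF-beta) lies at chr10:97479609-97518143 and Lum (lumican, which spaces collagen fibrils) next to it at chr10:97565128-97572703, both on the plus strand. Dcn stood at 165 and 218 CPM with EtOH against 34.5 and 11.6 with Control in WT mice, and 225 and 133 with EtOH against 60.2 and 47.4 with Control in Elf4-/- mice. Every EtOH library was above every Control library, and the lowest value was that of WT Control replicate 2. The log2 fold change, given here with its standard error, was 3.06 ± 0.46 (adjusted p = 0.00316) in WT, or 8.32-fold, and 1.73 ± 0.43 (adjusted p = 0.0607) in Elf4-/- mice. Lum was measured at 8.09 and 8.56 CPM with EtOH against 2.61 and 0.552 with Control in WT mice, and 6.22 and 6.5 with EtOH against 1.95 and 2.54 with Control in Elf4-/- mice. The diets again did not overlap, with a log2 fold change of 2.39 ± 0.53 (adjusted p = 0.0129) in WT and 1.51 ± 0.49 (adjusted p = 0.117) in Elf4-/- mice. Without 1 library, the WT value of Dcn ran from 2.47 to 4.04 and was highest without WT Control replicate 1, which moved it 1.97-fold. The WT value of Lum reached 3.87 without that library, it ran as low as 1.67 in the other fits, and its call was lost without either WT EtOH library.

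Both tested inhibitors of metalloproteinases rose in WT. Timp3, the matrix-bound inhibitor that also blocks ADAMTS enzymes, lies at chr10:86300372-86349506 within the gene Syn3, which is on the opposite strand and shares exon bases with it. Timp3 had 45.9 and 68.8 CPM with EtOH against 9.32 and 6.81 with Control in WT mice, and 70.1 and 37 with EtOH against 19.8 and 18.8 with Control in Elf4-/- mice. All EtOH libraries exceeded all Control libraries, at log2 fold changes of 2.83 ± 0.35 (adjusted p = 0.00182) in WT (7.11-fold) and 1.47 ± 0.32 (adjusted p = 0.0418) in Elf4-/- mice. The latter call was lost in 7 of the 8 fits that left out 1 library, the exception being the fit without Elf4-/- EtOH replicate 2, and the change was 0.94 when Elf4-/- EtOH replicate 1 was left out. Counts of Syn3 were 0.432 to 1.14 times those of Timp3 in each library, and its log2 fold change in WT was 2.99 (adjusted p = 0.00619). The strand setting of the counting is not given in the sources used here, so reads of Timp3 and Syn3 cannot be told apart. Timp2, an inhibitor that also takes part in the activation of MMP2, showed 10.1 and 13.3 CPM with EtOH against 2.8 and 1.1 with Control in WT mice, and 10.8 and 6.24 with EtOH against 4.71 and 2.39 with Control in Elf4-/- mice. Its lowest EtOH library was above its highest Control library, and its log2 fold change was 2.58 ± 0.51 (adjusted p = 0.00863) in WT and 1.22 ± 0.46 (adjusted p = 0.168) in Elf4-/- mice. The WT call of Timp2 was lost without WT Control replicate 2 or WT EtOH replicate 2, over values from 2.07 to 3.39, the highest without WT Control replicate 1.

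Among the 5 genes of stellate cells and myofibroblasts, Lrat (chr3:82892579-82903973, minus strand) rose with alcohol in WT and the other 4 did not pass. Lrat stood at 17.7 and 16.9 CPM with EtOH against 4.1 and 1.29 with Control in WT mice, and 26 and 14.7 with EtOH against 8.2 and 5.82 with Control in Elf4-/- mice. The 2 WT Control libraries were the lowest of all 8 and the 4 EtOH libraries the highest. Its log2 fold change was 2.68 ± 0.46 (adjusted p = 0.00503) in WT (6.4-fold) and 1.52 ± 0.40 (adjusted p = 0.0717) in Elf4-/- mice, and the WT value ran from 2.07 to 3.73 without 1 library, the highest being that without WT Control replicate 1. Acta2, the gene of alpha smooth muscle actin, was measured at 2.53 and 3.06 CPM with EtOH against 3.92 and 0.736 with Control in WT mice, and 4.62 and 2.79 with EtOH against 1.33 and 0.448 with Control in Elf4-/- mice. WT Control replicate 1 was higher than both WT EtOH libraries and WT Control replicate 2 lower, so the WT groups overlapped, while in Elf4-/- mice both EtOH libraries were above both Control libraries. The log2 fold change of Acta2 was 1.96 ± 0.75 (adjusted p = 0.175) in Elf4-/- mice and 0.27 ± 0.72 (adjusted p = 0.815) in WT, where it was 1.90 without WT Control replicate 1 and -0.48 without WT Control replicate 2. The Elf4-/- value of Acta2 ran from 1.45 without Elf4-/- Control replicate 2 to 2.99 without Elf4-/- Control replicate 1. The difference between both genotypes did not pass the test (1.69 ± 1.04, adjusted p = 0.629).

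Pdgfrb, the PDGF receptor of stellate cells and other mesenchymal cells, showed 6.32 and 6.93 CPM with EtOH against 2.61 and 3.86 with Control in WT mice, and 8.45 and 5.04 with EtOH against 6.76 and 5.07 with Control in Elf4-/- mice. Only WT Control stood apart, at a log2 fold change of 1.03 ± 0.39 (adjusted p = 0.0894) in WT and 0.17 ± 0.37 (adjusted p = 0.826) in Elf4-/- mice. Des, the intermediate filament desmin, had 4.8 and 4.79 CPM with EtOH against 3.54 and 1.66 with Control in WT mice, and 7.01 and 3.71 with EtOH against 6.25 and 2.24 with Control in Elf4-/- mice and log2 fold changes of 0.88 ± 0.58 (adjusted p = 0.304) in WT and 0.29 ± 0.54 (adjusted p = 0.796) in Elf4-/- mice. Tgfb1, the main fibrogenic cytokine, was found at 7.59 and 10.7 CPM with EtOH against 2.42 and 6.44 with Control in WT mice, and 5.58 and 5.04 with EtOH against 7.07 and 4.33 with Control in Elf4-/- mice. WT EtOH held the 2 highest values, but the log2 fold change was 1.04 ± 0.45 (adjusted p = 0.126) in WT and -0.12 ± 0.45 (adjusted p = 0.905) in Elf4-/- mice. The WT value was 0.51 without WT Control replicate 1 and 1.91 without WT Control replicate 2, where it passed (adjusted p = 0.0459). With library totals alone Tgfb1 passed in WT as well (1.47, adjusted p = 0.0431).

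**Figure D2:**
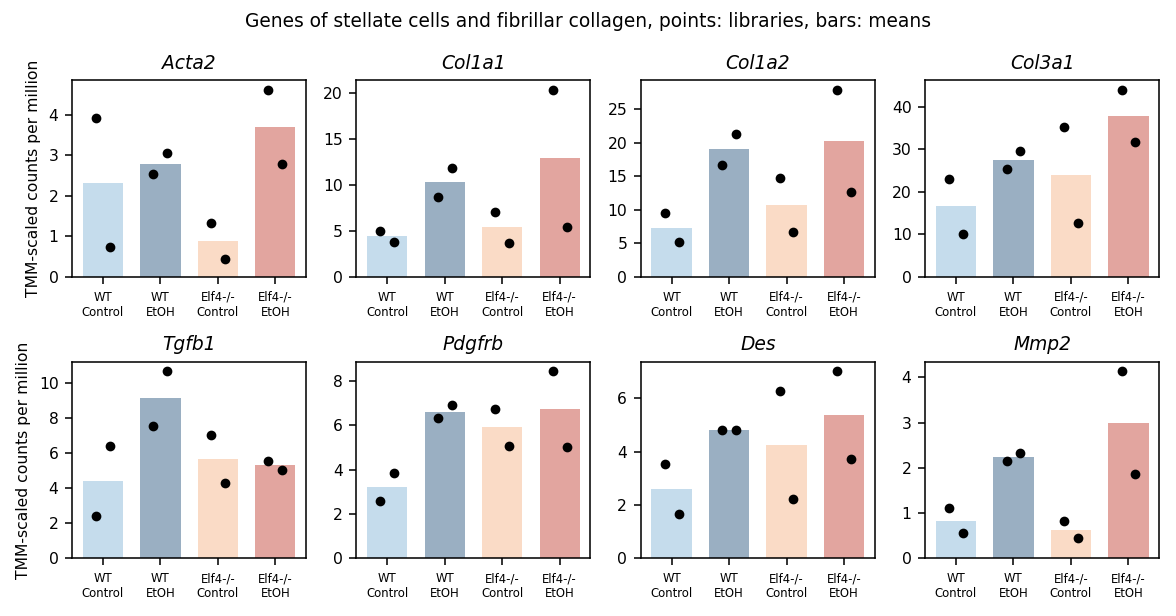
TMM-scaled CPM on linear axes from 0 for 8 genes commonly read in liver fibrosis, with a point for each library and a bar for the mean of the 2 libraries of a group. The replicates of Acta2 in WT Control (3.92 and 0.736) lay on either side of both WT EtOH libraries, and those of Col1a1 in Elf4-/- EtOH stood at 20.4 and 5.44.

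Markers of several liver cell types moved along with these genes. In WT 10.8% of all genes rose and 10.8% fell with alcohol, and in Elf4-/- mice 1.71% rose and 1.18% fell. At the Elf4-/- shares, 0 calls in a short list of markers is close to the background. Of 14 stellate cell markers, which include the members Lrat, Des and Pdgfrb, 8 rose and 1 fell with alcohol in WT and 0 passed in Elf4-/- mice. Their change was positive for 12 of 14 in each genotype (50.7% of all genes in WT, 50.9% in Elf4-/- mice). Their summed level was 310 to 426 CPM with EtOH against 183 to 306 with Control in WT, and 280 to 330 against 275 to 301 in Elf4-/- mice. A large part of each sum was Angptl6, which went the other way. It had 48.9 and 61.5 CPM with EtOH against 173 and 112 with Control in WT, and 44.5 and 67.3 against 85.6 and 90.4 in Elf4-/- mice. Of 8 endothelial markers 7 rose in WT, with sums of 364 to 445 CPM under EtOH against 87.4 to 162 under Control, and 213 to 346 against 217 to 242 in Elf4-/- mice. All 7 Kupffer cell markers rose in WT, from a sum of 169 to 214 CPM up to 565 to 626. In Elf4-/- mice 1 of the 7 rose, and the sum was 157 in both Control libraries and 213 to 232 with EtOH. Between genotypes under EtOH, 2 of the 7 were lower in Elf4-/- mice, where 0.143% of all genes passed. The summed hepatocyte markers (5 genes, 1 lower in WT) were at 31200 to 37400 CPM with EtOH against 51500 to 71900 with Control in WT, and 39300 to 53000 against 62900 to 70300 in Elf4-/- mice. Of 7 tested portal fibroblast markers 1 rose in WT (24.9 to 34.4 CPM against 12.3 to 23.5, and 25.9 to 29.5 against 16.1 to 22.1 in Elf4-/- mice), and of 4 tested smooth muscle markers 1 fell. None of the bile duct (5) or mesothelial (4) markers tested passed in WT, and 1 mesothelial marker rose in Elf4-/- mice. The part of these markers in the members' results was not tested.

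The fibril-forming collagens split. Both chains of type I, the main collagen of scars, rose in the average over genotypes, while Col5a3 fell in each genotype. Col1a1 was measured at 8.72 and 11.9 CPM with EtOH against 5.03 and 3.86 with Control in WT mice, and 20.4 and 5.44 with EtOH against 7.07 and 3.73 with Control in Elf4-/- mice. Elf4-/- EtOH replicate 1 was the highest library and the other Elf4-/- EtOH library lay within the range of the Control libraries. The log2 fold change was 1.22 ± 0.58 (adjusted p = 0.158) in WT and 1.22 ± 0.55 (adjusted p = 0.236) in Elf4-/- mice, where it was -0.02 without Elf4-/- EtOH replicate 1. In WT it passed with the 4 WT libraries alone (adjusted p = 0.03) and without Elf4-/- EtOH replicate 1 (adjusted p = 0.0333) or 2 (adjusted p = 0.0308). Averaged over genotypes, Col1a1 rose by 2.32-fold (1.22 ± 0.40, adjusted p = 0.0452), and the call held in 1 of the 8 fits without 1 library, with 0.60 without Elf4-/- EtOH replicate 1. Col1a2, the second chain of type I, showed 16.7 and 21.3 CPM with EtOH against 9.51 and 5.15 with Control in WT mice, and 27.9 and 12.6 with EtOH against 14.8 and 6.71 with Control in Elf4-/- mice. In WT the diets did not overlap (1.37 ± 0.48, adjusted p = 0.0649) and DESeq2 called the rise (adjusted p = 0.027), in Elf4-/- mice they did (0.89 ± 0.45, adjusted p = 0.287), and the average passed (1.13 ± 0.33, adjusted p = 0.0287). Col3a1, at 25.3 and 29.7 CPM with EtOH against 23.1 and 10.1 with Control in WT mice, and 44 and 31.7 with EtOH against 35.3 and 12.8 with Control in Elf4-/- mice, did not pass, with 0.73 ± 0.46 (adjusted p = 0.286) in WT, 0.64 ± 0.45 (adjusted p = 0.443) in Elf4-/- mice and 0.68 ± 0.32 (adjusted p = 0.139) averaged. Its values turned on single Control libraries, from 0.25 without WT Control replicate 2 to 1.44 without WT Control replicate 1 in WT, and from 0.10 without Elf4-/- Control replicate 2 to 1.55 without Elf4-/- Control replicate 1 in Elf4-/- mice.

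Col5a3 (chr9:20770050-20815067, minus strand), a minor chain of type V collagen, stood at 53.5 and 78.4 CPM with EtOH against 333 and 369 with Control in WT mice, and 22.3 and 74.3 with EtOH against 252 and 293 with Control in Elf4-/- mice. The 4 EtOH libraries were all below 80 CPM and the 4 Control libraries all above 250 CPM. It fell 5.32-fold in WT (-2.41 ± 0.46, adjusted p = 0.00721) and 5.62-fold in Elf4-/- mice (-2.49 ± 0.46, adjusted p = 0.0274). The call was lost without WT EtOH replicate 1 in WT and without either Control library in Elf4-/- mice, with the same direction in all 8 fits and values from -3.63 to -1.87 in Elf4-/- mice, the lowest without Elf4-/- EtOH replicate 2. Its partner chain Col5a2, which lies beside Col3a1 in the genome, had 5.69 and 6.42 CPM with EtOH against 2.05 and 2.58 with Control in WT mice, and 7.17 and 4.38 with EtOH against 4.92 and 3.58 with Control in Elf4-/- mice. Col5a2 rose in WT (1.38 ± 0.42, adjusted p = 0.041) and averaged over genotypes (0.90 ± 0.28, adjusted p = 0.0387), but not by DESeq2 (adjusted p = 0.0585 and 0.0598), and the WT call was lost without any 1 of the WT or Elf4-/- Control libraries. Col5a1 did not pass, with 1.08 ± 0.39 (adjusted p = 0.0761) in WT, 0.73 ± 0.27 (adjusted p = 0.0696) averaged over genotypes, and 0.77 ± 0.40 (adjusted p = 0.739) for genotype under Control. Col27a1, an abundant fibrillar collagen, was at 186 and 238 CPM with EtOH against 334 and 235 with Control in WT mice, and 68.7 and 342 with EtOH against 457 and 485 with Control in Elf4-/- mice. Elf4-/- EtOH replicate 1 was far below its partner, and the log2 fold changes of -1.20 ± 0.55 (adjusted p = 0.25) in Elf4-/- mice and -0.81 ± 0.39 (adjusted p = 0.146) in the average did not pass, whereas without Elf4-/- EtOH replicate 2 the former was -2.80 (adjusted p = 0.000385).

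All 9 tested members among the other collagens were positive in WT, as were 50.7% of all genes. Of these 9, 2 rose, where 10.8% of all genes rose. Col14a1, which decorates the surface of collagen fibrils, was found at 28.7 and 34.7 CPM with EtOH against 12.3 and 7.18 with Control in WT mice, and 30.8 and 24.3 with EtOH against 21.1 and 15.8 with Control in Elf4-/- mice. The diets did not overlap across all 8 libraries, with 1.70 ± 0.29 (adjusted p = 0.00469) in WT and 0.57 ± 0.27 (adjusted p = 0.264) in Elf4-/- mice. Col13a1, a collagen with a membrane-spanning domain, showed 7.97 and 9.88 CPM with EtOH against 2.42 and 1.1 with Control in WT mice, and 7.33 and 4.64 with EtOH against 3.38 and 4.03 with Control in Elf4-/- mice. It was lowest in WT Control, and its log2 fold change was 2.33 ± 0.45 (adjusted p = 0.00779) in WT and 0.69 ± 0.41 (adjusted p = 0.356) in Elf4-/- mice. Its call in WT was lost without WT EtOH replicate 2 (2.16, adjusted p = 0.0671), and the value ran from 1.88 without WT Control replicate 2 to 3 without WT Control replicate 1. Col20a1 and Col7a1, the latter the collagen of anchoring fibrils, passed in the average (1.04 ± 0.31, adjusted p = 0.0337 and 1.38 ± 0.43, adjusted p = 0.0392) and in neither genotype alone by edgeR with all libraries. In Elf4-/- mice Col20a1 passed by DESeq2 (adjusted p = 0.0181) and without Elf4-/- EtOH replicate 2 (2.12, adjusted p = 0.00449). Col6a1, a chain of the beaded filament collagen, stood at 12.1 and 12.1 CPM with EtOH against 7.83 and 4.97 with Control in WT mice, and 15.1 and 7.43 with EtOH against 10.1 and 8.65 with Control in Elf4-/- mice and gave 0.92 ± 0.37 (adjusted p = 0.103) in WT and 0.25 ± 0.36 (adjusted p = 0.731) in Elf4-/- mice. Col6a3 gave 1.04 ± 0.57 (adjusted p = 0.217) in WT, and 1.17 ± 0.57 (adjusted p = 0.72) for genotype under Control, with WT Control replicate 2 at 1.29 CPM and the other 7 libraries between 8.39 and 13.0 CPM.

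Basement membrane collagens went in both directions. Col18a1, the precursor of endostatin and second to Mmp11 in mean level per kilobase on either diet, had 409 and 318 CPM with EtOH against 789 and 866 with Control in WT mice, and 498 and 353 with EtOH against 638 and 701 with Control in Elf4-/- mice. Every EtOH library was below every Control library. It fell 2.28-fold in WT (-1.19 ± 0.26, adjusted p = 0.0119), where the call was lost without WT EtOH replicate 2, and gave -0.65 ± 0.26 (adjusted p = 0.18) in Elf4-/- mice. Col15a1, the closest relative of Col18a1, was at 5.06 and 7.13 CPM with EtOH against 11.2 and 16.2 with Control in WT mice, and 6.06 and 7.3 with EtOH against 5.94 and 9.99 with Control in Elf4-/- mice and fell in WT (-1.16 ± 0.35, adjusted p = 0.0413). That call was lost without any 1 of the 4 WT libraries and with library totals alone (-0.73, adjusted p = 0.15). Col4a1, a main chain of type IV collagen, showed 21.5 and 22.5 CPM with EtOH against 10.3 and 10.5 with Control in WT mice, and 53.1 and 16.3 with EtOH against 9.94 and 9.85 with Control in Elf4-/- mice. The diets did not overlap, and Elf4-/- EtOH replicate 1 stood well above all other libraries. Averaged over genotypes Col4a1 rose 2.72-fold (1.44 ± 0.31, adjusted p = 0.00825), from 1.08 ± 0.44 in WT and 1.80 ± 0.44 in Elf4-/- mice, with 0.90 in the average without Elf4-/- EtOH replicate 1. Col4a2, its neighbour on the opposite strand, with which it shares exon bases, was measured at 13 and 15.3 CPM with EtOH against 11.4 and 17.5 with Control in WT mice, and 28.2 and 8.76 with EtOH against 10.6 and 10.7 with Control in Elf4-/- mice and overlapped between diets (-0.03 ± 0.45, adjusted p = 0.974 in WT and 0.78 ± 0.45, adjusted p = 0.344 in Elf4-/- mice), and genotype under EtOH gave 0.37 ± 0.44 (adjusted p = 0.831).

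Of 9 tested laminin chains, 2 rose and 1 fell in WT, where 10.8% of all genes rose and 10.8% fell. Lamb1 and Lamc1 are the beta and gamma chains common to several laminins of basement membranes. Lamb1 stood at 4.93 and 6.01 CPM with EtOH against 2.24 and 1.29 with Control in WT mice, and 5.42 and 4.11 with EtOH against 3.59 and 3.73 with Control in Elf4-/- mice. The WT Control libraries were the lowest, and the log2 fold change was 1.63 ± 0.43 (adjusted p = 0.0264) in WT and 0.38 ± 0.39 (adjusted p = 0.623) in Elf4-/- mice. Lamc1 was found at 13.9 and 18 CPM with EtOH against 6.34 and 6.99 with Control in WT mice, and 20.4 and 14.3 with EtOH against 11.9 and 7.01 with Control in Elf4-/- mice, without overlap of the diets, at 1.26 ± 0.33 (adjusted p = 0.0235) in WT and 0.86 ± 0.31 (adjusted p = 0.153) in Elf4-/- mice. Lama3, the alpha chain of laminin 332 of epithelia, had 4.8 and 1.12 CPM with EtOH against 22.7 and 22.8 with Control in WT mice, and 1.28 and 5.44 with EtOH against 11.8 and 19.4 with Control in Elf4-/- mice. All EtOH libraries were below all Control libraries. Lama3 fell 7.89-fold in WT (-2.98 ± 0.63, adjusted p = 0.0109) and gave -2.16 ± 0.63 (adjusted p = 0.0891) in Elf4-/- mice, where DESeq2 called it (adjusted p = 0.00533). Without 1 library the WT call was lost for Lama3 (WT EtOH replicate 2, at -2.25 or less in every fit and -4.33 without WT EtOH replicate 1), for Lamb1 (WT Control replicate 2 or either WT EtOH library) and for Lamc1 (any 1 of the 4 WT libraries).

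Among the lysyl oxidases, Loxl1 had counts of 15 and 20 with EtOH against 2 and 0 with Control in WT mice, and 13 and 13 with EtOH against 13 and 6 with Control in Elf4-/- mice. WT Control was at or below a floor of 3 counts per library, so the WT EtOH level was at least 3.54-fold higher (adjusted p = 0.0309), and the call was lost in 5 of the 8 fits without 1 library, among them those without WT Control replicate 2 or either WT EtOH library. The median of members in WT was 0.89 with Loxl1 at this bound too. Loxl2 stood at 4.05 and 3.57 CPM with EtOH against 1.68 and 0.368 with Control in WT mice, and 8.61 and 2.92 with EtOH against 1.64 and 2.24 with Control in Elf4-/- mice. Its diets did not overlap and it passed in the average (1.72 ± 0.48, adjusted p = 0.025), where the value was 2.44 without WT Control replicate 1. Loxl3, at 12.3 to 18.3 CPM, showed 0.19 ± 0.24 (adjusted p = 0.601) in WT.

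The metalloproteinases had 1 member that passed in WT, Mmp14, which fell, where 10.8% of all genes fell. Mmp14, the membrane-bound enzyme that activates MMP2 and cuts fibrillar collagen, was measured at 48 and 61.1 CPM with EtOH against 186 and 84.3 with Control in WT mice, and 52.4 and 85.8 with EtOH against 68.9 and 87.6 with Control in Elf4-/- mice. WT Control replicate 1 was more than any other library, and the log2 fold change was -1.31 ± 0.37 (adjusted p = 0.0315) in WT and -0.18 ± 0.36 (adjusted p = 0.82) in Elf4-/- mice. Without WT Control replicate 1 the WT value was -0.63 and the call was lost, as it was without either WT EtOH or either Elf4-/- Control library. Mmp2, the gelatinase of mesenchymal cells, showed 2.15 and 2.34 CPM with EtOH against 1.12 and 0.552 with Control in WT mice, and 4.14 and 1.86 with EtOH against 0.82 and 0.448 with Control in Elf4-/- mice. Its diets did not overlap, and it rose in the average (1.78 ± 0.48, adjusted p = 0.021), with 1.41 ± 0.69 in WT and 2.16 ± 0.66 in Elf4-/- mice. Mmp15, a membrane-bound relative of Mmp14, stood at 16.7 and 17.1 CPM with EtOH against 22.9 and 24.1 with Control in WT mice, and 14.8 and 26.7 with EtOH against 42.1 and 32.7 with Control in Elf4-/- mice and fell in the average (-0.66 ± 0.19, adjusted p = 0.0284), but not with library totals alone (-0.46, adjusted p = 0.134). Mmp19 was found at 57.9 and 46.9 CPM with EtOH against 41.6 and 45.3 with Control in WT mice, and 92.9 and 56 with EtOH against 37.4 and 39.4 with Control in Elf4-/- mice and rose in the average (0.61 ± 0.17, adjusted p = 0.0266). Mmp19 shares exon bases with Tmem198b on the opposite strand. The average of Tmem198b was close to that of Mmp19 (0.57, adjusted p = 0.0557, edgeR) though not past the threshold, and reads of both may be shared. Mmp11 ranged from 250 to 427 CPM and gave 0.28 ± 0.26 in WT and 0.23 ± 0.26 in Elf4-/- mice. It shares exon bases with Chchd10 on the opposite strand, and its counts were 0.738 to 0.890 times those of Chchd10 in each library, so reads of both cannot be told apart.

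Of 9 tested ADAMTS proteases, 1 rose and 1 fell in WT, where 10.8% of all genes rose and 10.8% fell. Adamts1 (chr16:85793827-85803113, minus strand), a protease that cuts large proteoglycans, had 12.1 and 17.9 CPM with EtOH against 5.97 and 3.86 with Control in WT mice, and 18.5 and 16.7 with EtOH against 7.79 and 3.58 with Control in Elf4-/- mice. The diets did not overlap, and the log2 fold change was nearly the same in WT (1.61 ± 0.39, adjusted p = 0.0188) and in Elf4-/- mice (1.60 ± 0.38, adjusted p = 0.0527), although by edgeR with all libraries it passed in the former alone. In Elf4-/- mice it passed by DESeq2 (adjusted p = 0.00737) and without Elf4-/- EtOH replicate 2 (adjusted p = 0.0336). The WT call was lost without either WT Control library or WT EtOH replicate 2, over values of 1.29 to 1.96. Adamts7, a protease of cartilage and vessel matrix, was measured at 7.97 and 6.93 CPM with EtOH against 25.5 and 41.4 with Control in WT mice, and 5.9 and 16.3 with EtOH against 18.8 and 32.2 with Control in Elf4-/- mice. EtOH was below Control in all libraries, at -2.17 ± 0.45 (adjusted p = 0.00988) in WT and -1.17 ± 0.43 (adjusted p = 0.162) in Elf4-/- mice, and the WT call was lost without WT Control replicate 2 or either WT EtOH library. It shares exon bases with Tbc1d2b on the opposite strand, which fell as well (-1.05 in WT, adjusted p = 0.0163). Adamts2, which removes the end of procollagen, stood at 3.79 and 3.97 CPM with EtOH against 1.12 and 2.21 with Control in WT mice, and 5.1 and 2.39 with EtOH against 4.61 and 2.98 with Control in Elf4-/- mice and gave 1.21 ± 0.55 (adjusted p = 0.141) in WT and -0.05 ± 0.50 (adjusted p = 0.966) in Elf4-/- mice. Adamts13, the von Willebrand factor protease made by stellate cells, was at 5.56 and 6.93 CPM with EtOH against 3.36 and 2.39 with Control in WT mice, and 7.97 and 2.39 with EtOH against 5.64 and 4.18 with Control in Elf4-/- mice and gave 1.12 ± 0.54 (adjusted p = 0.165) in WT and 0.05 ± 0.51 (adjusted p = 0.968) in Elf4-/- mice.

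**Figure D3:**
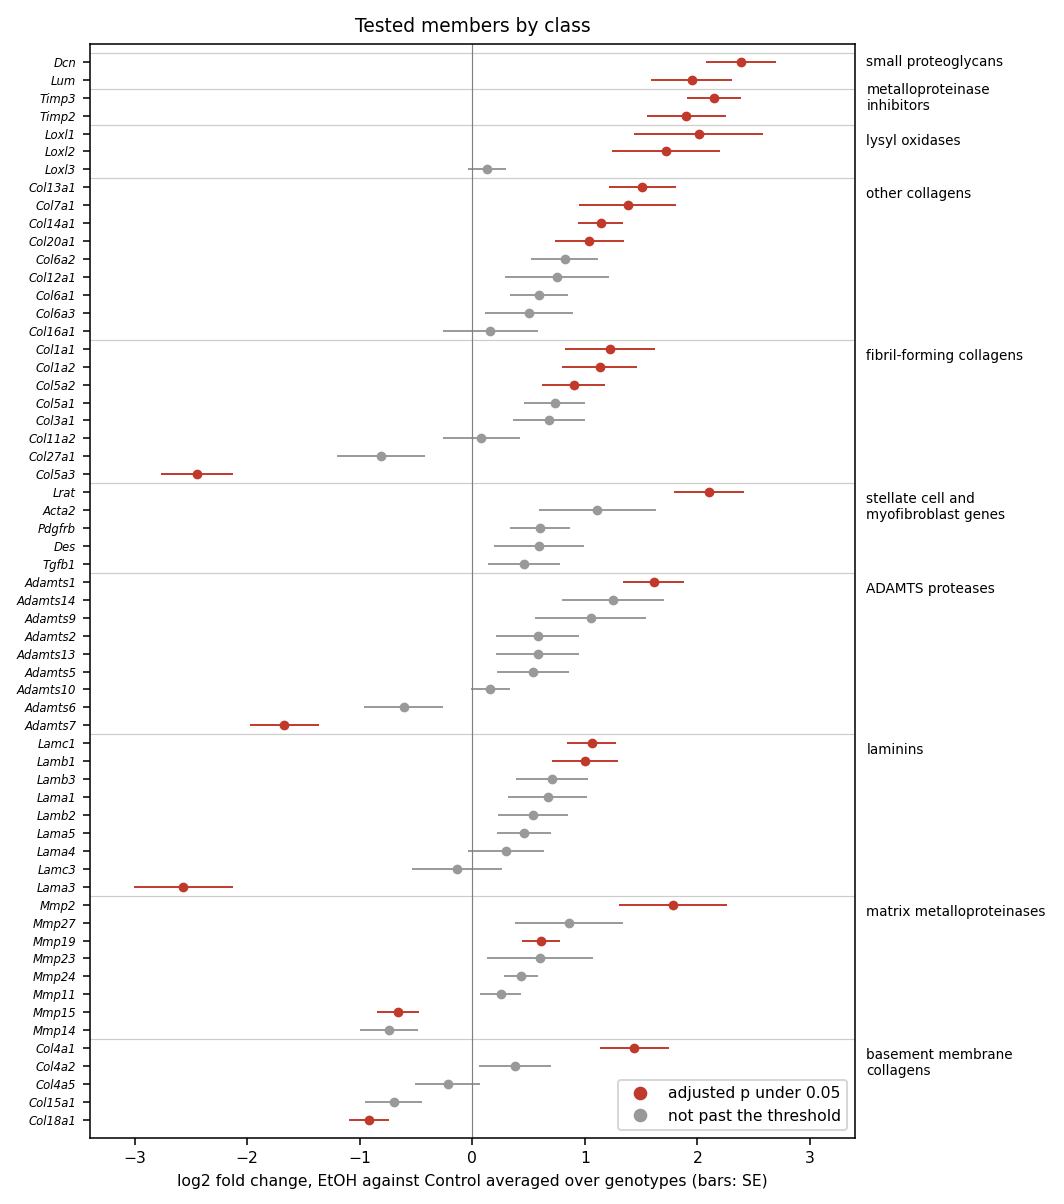
Log2 fold change of EtOH against Control averaged over genotypes for the 60 tested members, grouped by class, with bars of 1 standard error and red points for an adjusted p under 0.05. Both proteoglycans and both inhibitors were among those that rose, while Col5a3, Lama3 and Adamts7 stood apart at the low end of their classes.

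The fitted change with alcohol had the same sign in both genotypes in 50 of 60 members (83.3%, against 73.0% of all genes), and the diet contrasts of WT and Elf4-/- mice share no library. All 18 members called in WT had the same sign in Elf4-/- mice, as did 91.7% of all genes called in WT, and the change was larger in WT for 17 of them (94.4%). Among all genes called in WT the change was larger in WT for 93.4%, a share set in part by the choice of genes in WT. The interaction, which is the difference between both diet changes, passed for 0 members by edgeR (0% of all genes passed) and for 0 by DESeq2, where 32 members had no adjusted p and 1.26% of all genes passed. By unadjusted p under 0.05 it was met by 5 members, all negative (8.33%, against 10.1% of all genes). These were Timp3 (-1.36 ± 0.46), Col14a1 (-1.14 ± 0.39), Col13a1 (-1.64 ± 0.61), Adamts10 (-1.15 ± 0.34) and Mmp27 (-2.32 ± 0.95). The median interaction over members was -0.41, against 0 over all genes. Col6a3 gave -1.08 ± 0.78 (adjusted p = 0.683) and Col4a2 gave 0.81 ± 0.64 (adjusted p = 0.716). For Col27a1 the interaction was -0.77 with all libraries and -2.36 without Elf4-/- EtOH replicate 2.

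**Figure D4:**
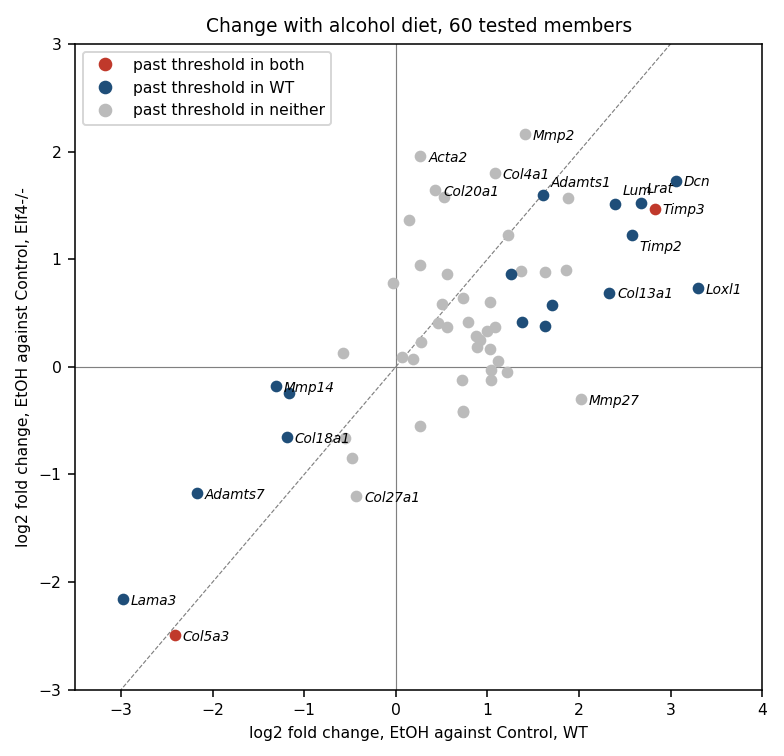
Log2 fold change of EtOH against Control in WT (horizontal) and in Elf4-/- mice (vertical) for the 60 tested members, with the dashed line of equal change. Red points passed the threshold in both genotypes (Timp3 and Col5a3) and blue points in WT, most of them on the WT side of the line, and the fitted value of Loxl1 rests on 2 counts in WT Control.

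Between genotypes no member passed under alcohol. For Elf4-/- EtOH against WT EtOH, edgeR called 0 of 60 members (0.143% of all genes passed), DESeq2 called 0 (1.31% of all genes), and 1 member, Mmp27, had an unadjusted p under 0.05 (1.67%, against 10.5% of all genes). The median log2 fold change over members was 0.03. Acta2 gave 0.39 ± 0.67 (adjusted p = 0.893), Col1a1 gave 0.31 ± 0.52 (adjusted p = 0.893), Col1a2 gave 0.08 ± 0.44 (adjusted p = 0.974) and Col3a1 gave 0.46 ± 0.44 (adjusted p = 0.782). Without Elf4-/- EtOH replicate 1 the change was 0.00 for Acta2 and -0.92 for Col1a1, so the sign of the latter turned on that library. Tgfb1 gave -0.79 ± 0.44 (adjusted p = 0.583), Timp3 gave -0.10 ± 0.30 (adjusted p = 0.947) and Adamts10 gave -0.36 ± 0.23 (adjusted p = 0.648). Mmp27, a metalloproteinase with at most 3.29 CPM, was lower in both Elf4-/- EtOH libraries than in both WT EtOH libraries (-1.70 ± 0.62, adjusted p = 0.379). Without Elf4-/- EtOH replicate 2, which leaves 1 library in that group, the change was 1.26 for Col4a1, -1.57 for Col5a3 and -1.63 for Col27a1. With all libraries it was 0.65, -0.45 and -0.04 in that order. How many of all genes passed in the fit without that library was not counted.

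Under the control diet no member passed between genotypes either. Of 60 members 0 passed by edgeR (0.0143% of all genes passed) and 0 by DESeq2, with 8 members lacking an adjusted p (0.668% of all genes passed). The median log2 fold change was 0.50, against 0.01 over all genes, and it was 0.11 without WT Control replicate 2 and 0.03 without Elf4-/- Control replicate 1. With an unadjusted p under 0.05 were 10 members (16.7%, against 7.31% of all genes), of which Timp3 (1.26 ± 0.35), Lrat (1.39 ± 0.48), Dcn (1.22 ± 0.44), Lamb1, Col13a1, Col14a1, Adamts10 (0.79 ± 0.24, adjusted p = 0.462), Loxl1 and Mmp15 were higher and Col15a1 (-0.80 ± 0.35) was lower in Elf4-/- Control. For Loxl1, with counts of 13 and 6 in Elf4-/- Control, the mean level was 2-fold that of a floor of 3 counts in WT Control. This comparison did not pass (adjusted p = 0.631, edgeR). Mmp14 gave -0.79 with all libraries and -1.25 without WT Control replicate 2 and Elf4-/- EtOH replicate 1. Averaged over diets, 0 members passed by edgeR (0.136% of all genes) and 0 by DESeq2 (0.843% of all genes), and 3 had an unadjusted p under 0.05 (5.00%, against 7.94% of all genes), namely Lrat (0.81 ± 0.31), Mmp15 (0.49 ± 0.19) and Timp3 (0.58 ± 0.23). Col6a3, Col3a1 and Col5a1, which did not pass, gave 0.63 ± 0.39 (adjusted p = 0.746), 0.50 ± 0.32 (adjusted p = 0.764) and 0.41 ± 0.27 (adjusted p = 0.774) in this average. In the same average Col5a3 gave -0.41 with all libraries and -0.97 without Elf4-/- EtOH replicate 2.

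**Figure D5:**
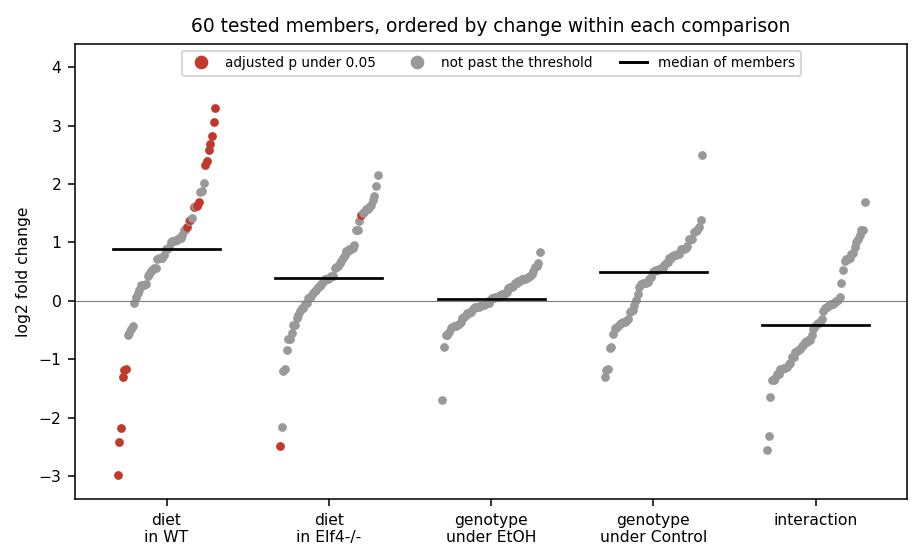
Log2 fold change of each of the 60 tested members in 5 comparisons, in rising order within a comparison, with red points past the threshold and a black line at the median. The medians were 0.89 and 0.39 for alcohol in WT and Elf4-/- mice, 0.03 and 0.50 for genotype under EtOH and Control, and -0.41 for the interaction, and the comparisons share libraries.

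Genes that act with the members were read as lists. In WT 10.8% of all genes rose and 10.8% fell with alcohol, and in Elf4-/- mice 1.71% rose and 1.18% fell. At the Elf4-/- shares, 0 calls in a list of this length is close to the background. Of 18 tested genes of the TGF-beta pathway, 5 rose and 1 fell in WT and 0 passed in Elf4-/- mice. Ccn2, a target of TGF-beta and YAP signalling, rose (log2 fold change 3.90, adjusted p = 0.00956), Bambi, a decoy receptor, rose (2.40, adjusted p = 0.0446), Tgfbr2, the type II receptor, rose (1.42, adjusted p = 0.0116) and Smad3, which carries the signal to the nucleus, fell (-1.73, adjusted p = 0.00359). Of 17 genes of collagen processing, 4 rose in WT, which were Fkbp10, a collagen chaperone (2.63, adjusted p = 0.0435), Crtap, a partner of prolyl 3-hydroxylation (1.82, adjusted p = 0.0219), and the prolyl hydroxylase chains P4ha2 (1.05, adjusted p = 0.0471) and P4ha1 (1.02, adjusted p = 0.0246), and in Elf4-/- mice Tgm2, a transglutaminase that cross-links matrix, was the 1 that rose (1.21, adjusted p = 0.0274). Of 17 other matrix proteins, 8 rose and 1 fell in WT and 0 passed in Elf4-/- mice, at median log2 fold changes of 1.78 and 1.02. They included biglycan (Bgn, 2.67, adjusted p = 0.00242), a relative of decorin, nidogen 1 (Nid1, 2.78, adjusted p = 0.00747), which links basement membranes, osteonectin (Sparc, 2.50, adjusted p = 0.00738), which binds collagen, and the fibulin Efemp1 (2.09, adjusted p = 0.0122), while agrin (Agrn) fell (-0.90, adjusted p = 0.0422). Of 5 PDGF genes Pdgfc rose (3.03, adjusted p = 0.0142) and Pdgfa fell (-1.55, adjusted p = 0.0205) in WT, and of 3 tested genes of the plasmin system Serpinf2, the plasmin inhibitor, fell (-1.61, adjusted p = 0.00578). In WT Control, Fkbp10 stood at 0.373 and 0.368 CPM, Pdgfc at 0.186 and 0.736, Ccn2 at 0.186 and 0.92, and Bambi at 1.68 and 0.184. Such levels rest on few counts, so the size of the rises of these genes is uncertain. Between genotypes 0 genes of these 5 lists passed by edgeR under either diet, where 0.143% of all genes passed under EtOH and 0.0143% under Control. The interaction passed for 0 genes of these lists (0% of all genes).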

How the data were processed

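Liver RNA was isolated with Trizol and sequenced as read pairs on an Illumina HiSeq. According to the methods of the study, the authors aligned reads to mm10 by HISAT2, sorted alignments by samtools and obtained gene counts by HTSeq. The deposited table holds these raw counts, whole numbers per gene symbol and library, not normalized. Tool versions, annotation and strand setting are not given in the sources used here, so reads of genes that overlap on opposite strands may be shared. Blank lines were left out (968).

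All 8 libraries entered 1 model of 4 groups in edgeR 4.0.16 (R 4.3.3), with TMM factors, filterByExpr (13993 genes kept, at least 99.8% of counts) and the quasi-likelihood test. The 7 contrasts were each adjusted by Benjamini-Hochberg over all genes kept, with a threshold of 0.05. CPM values were scaled by TMM, and SE is the standard error of a log2 fold change implied by its test. Members were read where their mean was at least 10 counts. Named members were a fixed set of matrix genes, all those past the threshold, and those of at least 50 counts with the largest changes that did not pass. Mmp11, Mmp27, Loxl3 and Lamc3 were named after their values were seen. Members and lists were chosen with earlier results of these data known. Coordinates and exon lengths came from GENCODE M21 (GRCm38), where all 89 symbols matched. Alternatives were DESeq2 1.42.0, other scalings, other filters, a replicate block, the 4 libraries of a contrast alone and leaving out libraries. The steps were tested on simulated data. Counting error and floors do not cover PCR copies.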

Additional observations from a re-analysis of the deposited data

Results flagged for a closer look

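In 3 members the groups of one genotype or diet lay on opposite sides without overlap. How many of all genes did so was not counted, so these 3 cannot be called more than the background. Adamts10, a protease of microfibril matrix, stood at 26.6 and 31.6 CPM with EtOH against 21.6 and 13.4 with Control in WT mice, and at 23.8 and 21.6 against 30.7 and 29.8 in Elf4-/- mice, so alcohol went with a higher level in WT and a lower level in Elf4-/- mice. The interaction was -1.15 and did not pass (adjusted p = 0.314, edgeR). Lamc3, a laminin chain, went the same ways at low counts (1.52 and 1.83 CPM against 1.49 and 1.29 in WT, 1.59 and 0.929 against 1.74 and 1.94 in Elf4-/- mice), with an interaction of -0.82 (adjusted p = 0.783, edgeR). Col13a1 was higher in Elf4-/- than in WT mice under the control diet and lower under EtOH (3.38 and 4.03 against 2.42 and 1.1 CPM, and 7.33 and 4.64 against 7.97 and 9.88), with an interaction of -1.64 (adjusted p = 0.416, edgeR). No cause was tested.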

How the results depend on the processing

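The number of members past the threshold for alcohol in WT was 18, and 31 with library totals alone; leaving out 1 library gave 5 to 28. In Elf4-/- mice it was 2, and 9 by DESeq2, 6 with no filter, 1 with the replicate block, 0 with only the 4 libraries compared, and 0 to 16 without 1 library. Averaged over genotypes it was 25, and 14 to 33 without 1 library. It was 0 for each genotype comparison and for the interaction, and 0 to 3 under EtOH, 0 to 0 under Control, 0 to 1 averaged over diets and 0 to 1 for the interaction without 1 library. Leaving out both WT Control replicate 2 and Elf4-/- EtOH replicate 1 was an alternative chosen after seeing the data. In it Mmp14 gave -1.25 for genotype under Control and 1.90 for the interaction. Replicate numbers did not pair the libraries (correlations of replicate deviations from -0.109 to 0.0594), and the replicate block gave 18 calls for alcohol in WT and 26 averaged over genotypes, and Col5a2 in both and Timp3 in Elf4-/- mice (adjusted p = 0.0671) no longer passed. Signs were followed for members past the threshold in a contrast. They were also followed for Acta2, Col1a1, Col3a1 and Tgfb1 with alcohol in each genotype and between genotypes under EtOH. Other values were not checked. Without 1 library, signs turned for 5 of these values. With alcohol in WT, Acta2 ran from -0.48 (without WT Control replicate 2, also with the other library left out) to 1.90. With alcohol in Elf4-/- mice, Col1a1 ran from -0.02 (without Elf4-/- EtOH replicate 1) to 1.86. Tgfb1 there ran from -0.41 to 0.29 (without Elf4-/- Control replicate 1). Between genotypes under EtOH, Acta2 ran from 0.00 to 0.71 and Col1a1 from -0.92 to 0.97, both lowest without Elf4-/- EtOH replicate 1. The cause was not tested. Having 2 libraries per group and few counts per member limits what could be seen, and Timp1, Lox and 27 other members were too low to test.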
